A study of Drosophila melanogaster with 9 samples.

Results

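Ribosomal protein genes of the cytosol were followed over whole *Drosophila* larvae that were left untreated, injured with a clean needle or pinched with forceps. They were taken as all genes whose symbol starts with *RpL* or *RpS* followed by a digit or by P, each represented by the probe set that was brightest on average over the 9 arrays, and 41 of the 11982 genes named by a probe set of their own met this rule. The RefSeq gene table holds 92 such symbols. The other 51, *RpS6* among them, had no probe set annotated to them alone and were not analysed here, so no count below speaks for all ribosomal protein genes. RNA of *y w* larvae of the third instar had been hybridized to the arrays in 3 groups of 3, which the labels call biological replicates. Larvae of the untreated group received no stimulation, those of the clean injury group were pricked with a sterile tungsten needle and those of the pinching group were pinched with forceps, both taken 4 h later. No uninjured larvae kept for 4 h were used here, so injury cannot be told apart from that time, the handling or a change of food. The sources used here do not say how larvae were divided among the replicates, and the p-values therefore measure the spread between these samples.

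The cytosolic ribosome consists of a small subunit, which reads the mRNA, and a large subunit, which joins the amino acids, and each holds rRNA and a set of proteins named RpS and RpL. Its proteins are made in near equal amounts, their mRNAs are among the most abundant of a growing larva, and loss of a copy of many of these genes gives the *Minute* phenotype of slow development and short bristles. Of the 41 genes, 30 encode standard components, namely 15 proteins of the large subunit, 9 of the small subunit, 3 of the stalk that binds translation factors and 3 proteins made as fusions with ubiquitin or a ubiquitin-like protein. A further 8 are duplicates whose copy is used in fewer tissues, and 3 are relatives that in yeast act in the assembly of ribosomes and are named *RpLP0-like*, *RpL24-like* and *RpL7-like*.

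The standard genes gave some of the brightest signals of the arrays and varied little. Their mean log2 signals over the 9 arrays ran from 11.06 for *RpL34a*, a protein of the large subunit, to 14.00 for *RpL41*, a very short peptide of the same subunit, and 19 of the 30 were among the 100 brightest probe sets. *RpLP1* of the stalk, *RpL15* of the large subunit and *RpS29* of the small subunit followed *RpL41* at 13.66, 13.64 and 13.56, and *RpL39*, a protein lining the exit tunnel of the large subunit, was next at 13.50. The highest value on any array lay between 14.20 and 14.40, so that many of these genes stood near the top of the scale, and the deposited table does not tell whether their probes were saturated. The 8 duplicates were dimmer, from 3.98 for *RpS28a* to 7.33 for *RpS5b*, and the 3 relatives lay at 6.80 for *RpLP0-like*, 9.03 for *RpL7-like* and 9.96 for *RpL24-like*. Signals of different probe sets do not rank the amounts of their transcripts. The median signal of the 41 genes was 12.92, against 5.03 over all 18769 probe sets tested, and their spread was not set against that of equally bright probe sets. The standard deviation left after the group means were removed had a median of 0.07 over the 41 genes, against 0.17 over all probe sets tested. Without *RpLP2*, in which 1 array strayed, it lay between 0.03 and 0.16 for the standard genes. The duplicates, with a median of 0.24, spread more widely, as the plot of the signals by array shows.

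**Figure D1:**
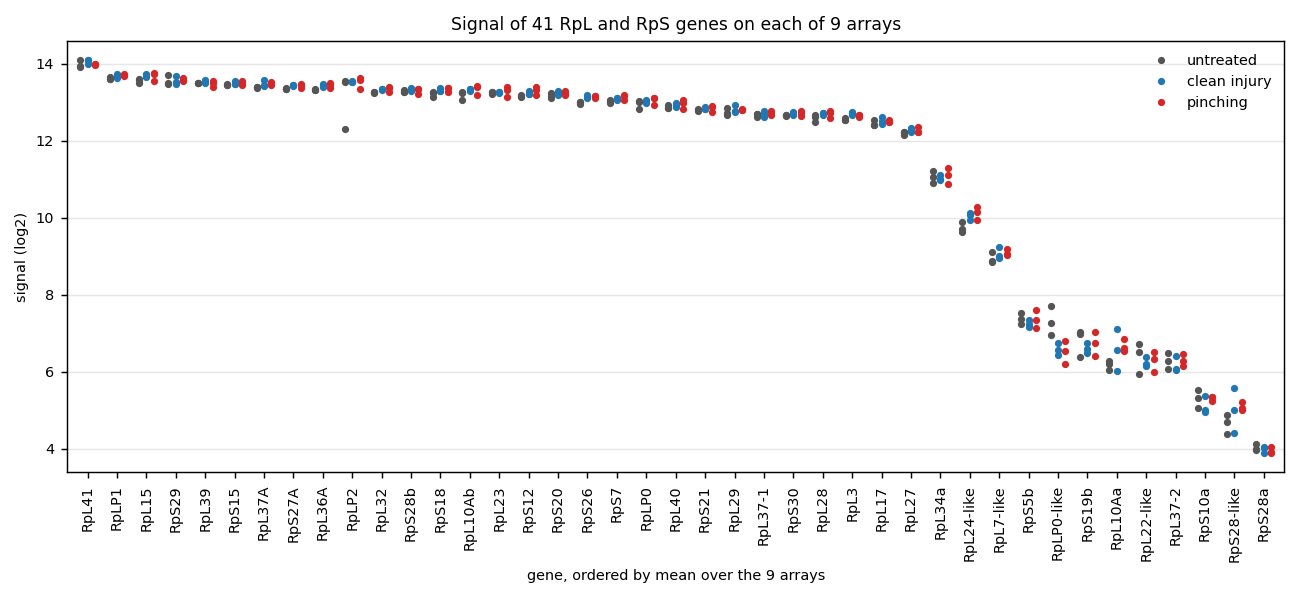
Log2 signal (vertical axis) of each of the 41 RpL and RpS genes (horizontal axis, ordered by mean over the 9 arrays) on every array, with untreated larvae in grey, clean injury in blue and pinching in red. The standard genes sit at 11.06 or above on average with the groups close together, except for *RpLP2* on 1 untreated array, and the duplicates sit at 7.33 or below.

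After clean injury almost no ribosomal protein gene passed the test, and most values lay slightly above those of untreated larvae. Of 41 genes, none was called higher and 1, *RpLP0-like*, was called lower than in untreated larvae at an adjusted p under 0.05 (limma, Benjamini-Hochberg over all probe sets), where 5.22% of all probe sets were called higher and 4.93% lower. At an unadjusted p under 0.05, 1 was higher, *RpL24-like*, and 1 was lower, against 12.2% and 12.8% of all probe sets. A fit with the replicate number as block called none higher and 1 lower, against 10.1% and 8.58%. The 30 standard genes had log2 changes between -0.04 and 0.41, and 28 of them were above 0, or 22 when the arrays were centred on their medians. Of all 41 genes 32 were above 0. Their median was 0.07, where that of all probe sets was -0.04, and without clean injury replicate 1 it was 0.04. For 12 genes every clean injury array lay above every untreated array, and for 1 every array lay below, against 15.4% and 19.1% of all probe sets. Among the 12 were *RpS26*, which sits where the mRNA leaves the small subunit, with a log2 change of 0.16, *RpL3*, which reaches into the catalytic centre of the large subunit, with 0.15, and *RpL15*, with 0.15. *RpS18* and *RpS12* of the small subunit, of which the latter is known from competition between *Drosophila* cells, had 0.09 and 0.07. The methods' t-test, with no adjustment, called 7 of the 41 genes higher and 1 lower, against 10.5% and 12.2% of all probe sets. In whole larvae, fewer cells of a type and less RNA per cell cannot be told apart.

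Pinching with forceps gave changes of the same small size. Again none of the 41 genes was called higher and 1, *RpLP0-like*, was called lower (limma), against 4.21% and 4.99% of all probe sets. Blocking on the replicate number gave 1 higher, *RpL24-like*, and 1 lower, against 7.6% and 8.76%. At an unadjusted p under 0.05 there were 1 and 1, against 10.2% and 13.2%. The standard genes had log2 changes between -0.01 and 0.39, of which 29 of 30 were above 0, or 25 when the arrays were centred on their medians. The median over the 41 genes was 0.07, or 0.05 without pinching replicate 3, the median of all probe sets was -0.02, and 35 of 41 were above 0. For 8 genes every pinching array lay above every untreated array and for 1 every array lay below, against 12.7% and 14.9% of all probe sets. The largest log2 changes among these 8 were those of the duplicates *RpL10Aa* and *RpS28-like*, at 0.49 and 0.45, while *RpL3* had 0.09. The methods' t-test without adjustment gave 8 higher and 1 lower, against 8.7% and 9.14%. The interval of each difference shows what these arrays could tell under limma, whose standard errors draw on the spread of all probe sets. The standard deviation left after the group means had a median of 0.17 over all probe sets, against 0.06 over the 30 standard genes. For most standard genes the standard error was thus larger than their own spread would give, which bears on the calls as well. Without *RpLP2*, the 95% intervals of the other 29 standard genes all lay between -0.33 and 0.37 on the log2 scale for clean injury, or 0.795-fold to 1.29-fold, and between -0.27 and 0.38 for pinching, or 0.829-fold to 1.31-fold. The intervals include 0 in each case, which does not show that the genes did not move. Both comparisons use the same untreated arrays and are not independent of each other.

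**Figure D2:**
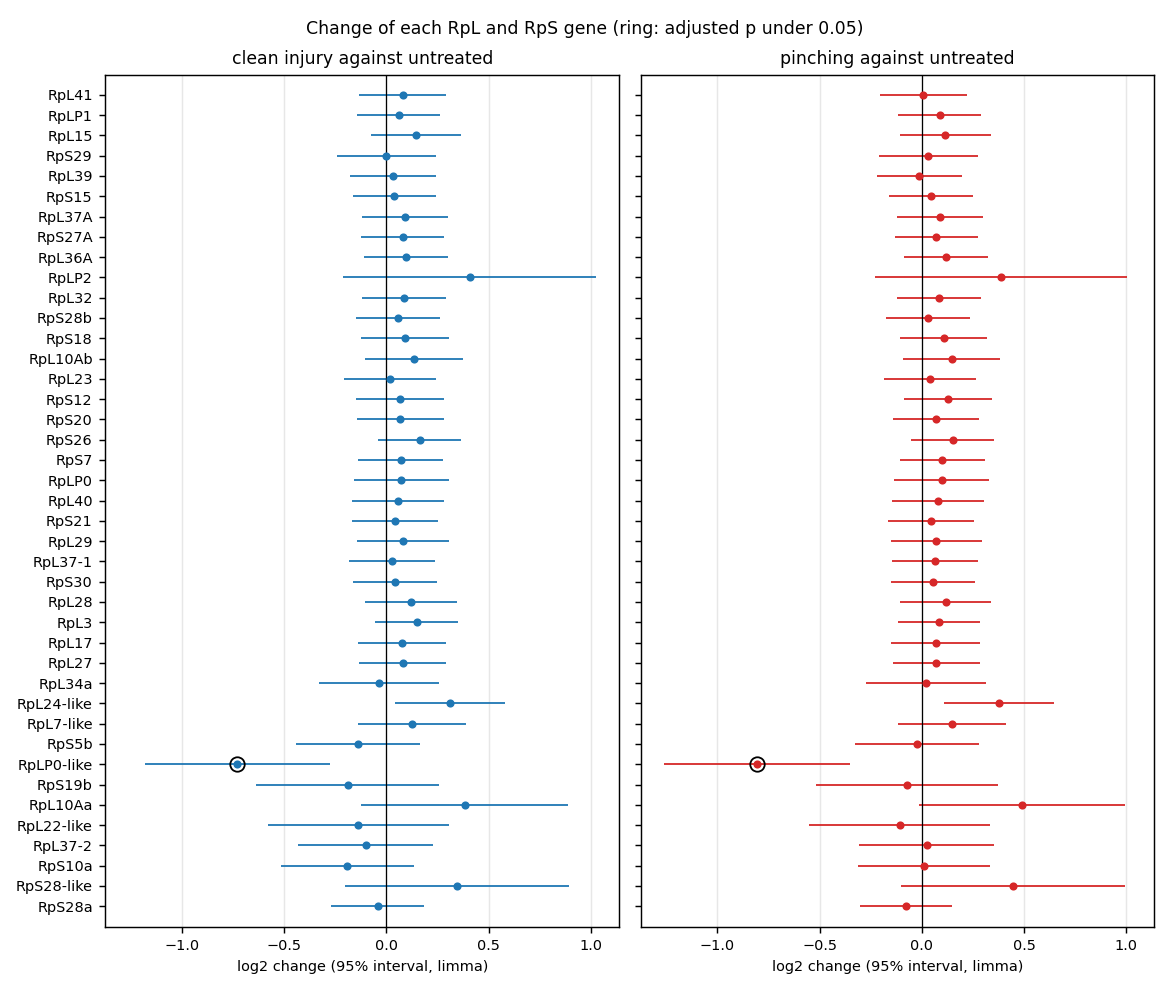
Log2 change of each RpL and RpS gene (rows, ordered by mean signal) after clean injury (left, blue) and pinching (right, red) against untreated larvae, with the 95% interval from limma and a ring around genes with an adjusted p under 0.05. Points of the standard genes crowd just above 0, *RpLP2* has a long interval, and *RpLP0-like* is the gene with a ring in both panels, at -0.73 and -0.81.

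When the injuries were set against each other, no ribosomal protein gene was called in either direction (limma), with 0% of all probe sets higher after pinching and 0.00533% lower. At an unadjusted p under 0.05 none of the 41 was higher or lower, against 0.57% and 1.09% of all probe sets. Blocking on the replicate number also called none, against 0% and 0.0426%. Log2 differences of pinching minus clean injury ran from -0.08 for *RpLP0-like* to 0.20 for the duplicate *RpS10a*, with a median of 0.02. In no gene did the arrays of these groups separate, against 2.36% and 2.83% of all probe sets. The differences of the 29 standard genes without *RpLP2* had 95% intervals between -0.29 and 0.35.

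Most standard genes shifted together from array to array, by small amounts. The mean log2 signal of the 29 genes without *RpLP2* was 13.01, 13.03 and 13.04 on the untreated arrays numbered 1 to 3, 13.13, 13.07 and 13.09 after clean injury and 13.03, 13.12 and 13.15 after pinching. All clean injury arrays were thus above all untreated arrays, whereas pinching replicate 1 lay among the untreated ones. The replicate numbers were taken to pair the arrays, as the processing describes, and within numbers the picture differed between the treatments. For clean injury, 29, 25 and 27 of the 30 standard genes were higher than on the untreated array of the same number, with median differences of 0.10, 0.04 and 0.06. For pinching it was 16 of 30 within number 1, with a median difference of 0.01, and 30 of 30 within numbers 2 and 3, with 0.10 and 0.12. Of all 18769 probe sets, 8848, 8369 and 8928 were higher within numbers 1 to 3 for clean injury, and 8996, 8757 and 9273 for pinching. Across the 9 arrays the genes that followed the mean of the other standard genes most closely were *RpS27A*, a fusion of ubiquitin to a protein of the small subunit, and *RpL36A*, with Pearson's r of 0.98 each. *RpS29* and *RpLP0-like* stood at the other end, with r of -0.10 and -0.44. Of the other standard genes, *RpL41* had 0.05, and *RpL29*, *RpL34a*, *RpL39* and *RpL17* had 0.42 to 0.47. These r describe arrays that share labelling and scaling. The genes outside the group whose signals ran most like the mean of the 41 were *CG4955*, *CG6614*, *CG15035*, *CG10862* and *CG5347*, with r from 0.94 down to 0.91 over 9 arrays. They are dim, with mean signals of 3.43 to 6.29, where the median of all probe sets was 5.03. The highest r among so many genes over 9 arrays can arise without a link. The mean of the 41 also includes the duplicates, whose mean ranged over 0.45 between arrays, against 0.14 for the 29 standard genes.

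The array of untreated replicate 1 stood apart in the controls for RNA quality. The probe set for the 5′ end of 18S rRNA read 5.27 on it and 9.04 to 12.09 on the others, where the arrays of clean injury replicate 1 and pinching replicate 1 were the next lowest at 9.84 and 9.04. The signal at the 3′ end exceeded that at the 5′ end by 4.77 for actin and 5.96 for eIF-4a on this array, and by 2.41 to 3.38 and 3.27 to 3.70 on the others. The mean of the 29 standard genes there, 13.01, was the lowest of the 9, next to 13.03. When that array was left out, 28 of the 30 standard genes were above 0 after clean injury and 27 after pinching, and without all 3 arrays numbered 1 it was 27 and 30. Neither fit called any of the 41 genes (limma), and at an unadjusted p under 0.05 the former had 1 gene lower in each comparison, *RpLP0-like*, and 1 higher after pinching. The calls over all 18769 probe sets fell as well without untreated replicate 1. After clean injury 502 were higher and 412 lower, against 980 and 926 with all arrays. After pinching it was 465 and 433, against 790 and 937. How far RNA quality took part in the results was not tested. Array medians lay between 4.94 and 5.08, and markers of the fat body, midgut, muscle, salivary gland, trachea and hemocytes were bright, with *Lsp2* of the fat body at 13.93. Of 9 genes listed as hemocyte markers, 4 were lower after clean injury, *Pxn*, *PPO1*, *Col4a1* and *vkg*, and 2 after pinching, *Col4a1* and *vkg*. *Fer2LCH*, the brightest of the 9 at 11.90, was higher in each. Whether these genes mark hemocytes alone was not examined. Array means of the 9 were 9.51 to 9.58 in untreated larvae, 8.98 to 9.25 after clean injury and 9.12 to 9.40 after pinching. Single markers of other tissues were called too. *Gasp*, the measured tracheal marker, was higher in both comparisons, with log2 changes of 0.47 and 0.56, as was *Appl* of the nervous system, at 0.59 and 0.61. Of 6 midgut markers, *LManIII* was lower in both and *alphaTry* was higher after clean injury. Of all probe sets 5.22% and 4.93% were higher and lower after clean injury and 4.21% and 4.99% after pinching. The part of these cell types in the results was not tested either. The brightest of 3 measured epidermal markers, *resilin*, was at 4.30, and the brightest of 6 measured germline markers, *bam*, at 4.88. *RpS5b*, *RpS19b* and *RpL22-like*, known mainly from the germ line, are members and were not counted among these markers. They lay at 7.33, 6.71 and 6.30.

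**Figure D3:**
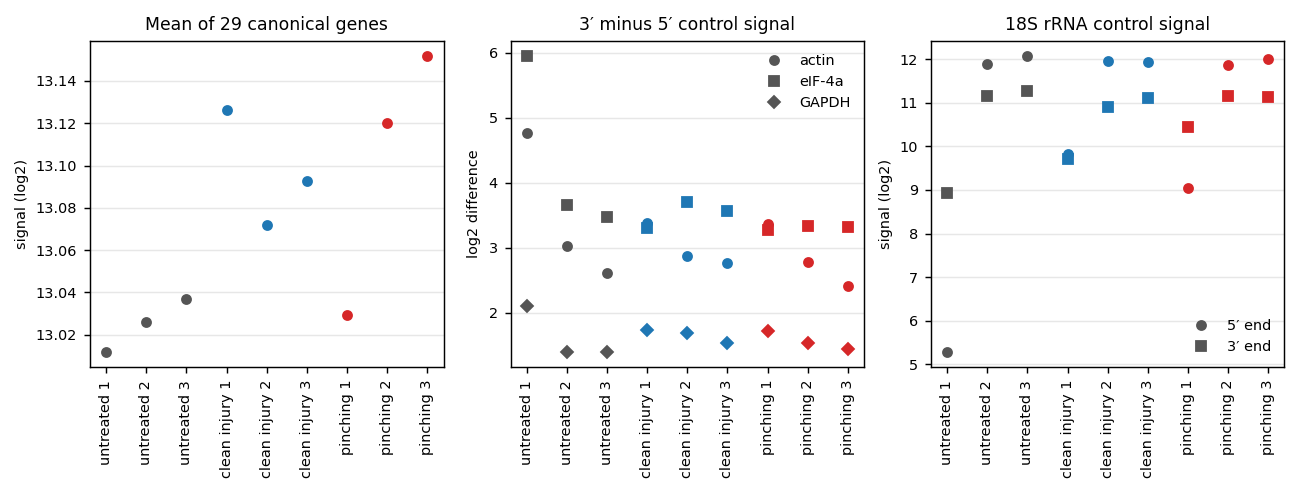
Values per array (horizontal axis, group and replicate number) of the mean log2 signal of 29 standard genes without *RpLP2* (left), the log2 difference between 3′ and 5′ control probe sets of actin, eIF-4a and GAPDH (middle) and the log2 signal of the 18S rRNA control probe sets (right), in grey for untreated larvae, blue for clean injury and red for pinching. The means of the standard genes lie within 13.01 and 13.15, whereas untreated replicate 1 is far from the others in the control probe sets.

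The stalk proteins, which draw elongation factors to the ribosome, are encoded by *RpLP0*, *RpLP1* and *RpLP2*. *RpLP2* gave 12.30, 13.54 and 13.52 in untreated larvae, 13.53, 13.53 and 13.54 after clean injury and 13.33, 13.58 and 13.63 after pinching (log2 signal, replicates 1 to 3). The array of untreated replicate 1 was low and the other 8 lay together. The log2 changes of 0.41 (standard error 0.28, adjusted p = 0.389 from limma) and 0.39 (standard error 0.28, adjusted p = 0.440) rested on that array, and without it they were -0.0048 and -0.024. It is also the array with the largest gaps between 3′ and 5′ controls, and the part of RNA quality in its low *RpLP2* was not tested. *RpLP0*, the base of the stalk, read 12.82, 13.00 and 13.02 in untreated larvae, 12.99, 13.02 and 13.04 after clean injury and 12.92, 13.11 and 13.10 after pinching. Its groups overlapped, with log2 changes of 0.07 and 0.10. *RpLP1* had log2 changes of 0.06 and 0.09, and its pinching arrays, at 13.69, 13.69 and 13.72, were above the untreated ones, at 13.64, 13.60 and 13.59.

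Among the genes of the large subunit, *RpL32* is of practical interest, because it served as the internal control of the qPCR. It gave 13.26, 13.24 and 13.25 in untreated larvae, 13.34, 13.32 and 13.35 after clean injury and 13.25, 13.36 and 13.40 after pinching. All clean injury arrays were slightly above the untreated ones, and pinching replicate 1 lay among the latter. The log2 change was 0.08 for both treatments, or 1.06-fold (standard error 0.09 each, adjusted p = 0.597 and 0.626 from limma), with 95% intervals of -0.12 to 0.29 in each comparison. The standard error in limma draws on the spread of all probe sets and was larger than the spread of these 9 values alone would give. *RpL3* read 12.54, 12.54 and 12.59 in untreated larvae, 12.73, 12.72 and 12.66 after clean injury and 12.65, 12.67 and 12.60 after pinching. Its groups did not overlap in either comparison, and its log2 changes of 0.15 and 0.09 did not pass the test (adjusted p = 0.340 and 0.611 from limma). *RpL36A* stood at 13.32, 13.31 and 13.33, then at 13.46, 13.39 and 13.41, and at 13.36, 13.45 and 13.50. Here too every treated array was above the untreated ones, with log2 changes of 0.10 and 0.12. At the other end of the subunit, *RpL34a* had -0.04 and 0.02 and *RpL39* had 0.03 and -0.01. *RpL41*, the brightest of the 41, had 0.08 after clean injury and 0.0072 after pinching.

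In the small subunit, *RpS26* was the gene with the largest change. Its values were 12.94, 13.01 and 13.01 in untreated larvae, 13.19, 13.11 and 13.14 after clean injury and 13.10, 13.15 and 13.16 after pinching. The treated arrays were all above the untreated ones, and the log2 changes of 0.16 and 0.15 (standard error 0.09 each) had adjusted p = 0.295 and 0.355 from limma. The other 8 genes of this subunit had log2 changes between -0.0013 and 0.09 after clean injury and between 0.03 and 0.13 after pinching. *RpS29* was read by a pair of bright probe sets. The brighter gave -0.0013 and 0.03, and the other, at a mean of 13.48, gave 0.13 and 0.06. Of the fusion genes, *RpL40* had 0.06 and 0.08 and *RpS27A* had 0.08 and 0.07.

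*RpS30*, which carries a ubiquitin-like protein ahead of its ribosomal part, was read differently by its probe sets. The bright one, at a mean of 12.69, had log2 changes of 0.04 and 0.06. The dim one gave 7.52, 6.36 and 7.67 in untreated larvae, 5.38, 5.99 and 6.35 after clean injury and 5.51, 5.88 and 6.61 after pinching. All clean injury arrays lay below the untreated ones, narrowly so for untreated replicate 2, and pinching replicate 3 overlapped with them. Its log2 changes were -1.28 (standard error 0.38, adjusted p = 0.0622 from limma) and -1.19 (standard error 0.38, adjusted p = 0.0874), and a block for the replicate number lowered the adjusted p to 0.00835 and 0.0135. Which transcripts the dim probe set reads was not examined here. *RpL3* also has a second probe set that departs from the first. It gave 4.55, 5.88 and 6.03 in untreated larvae against 6.19 to 6.45 on the treated arrays, with log2 changes of 0.82 and 0.80 (adjusted p = 0.135 and 0.155 from limma). Its lowest value is again on the array of untreated replicate 1, and without it the log2 changes were 0.35 and 0.33. The remaining other probe sets, a further one each of *RpL3*, *RpS29* and *RpS7*, had mean signals of 2.73, 3.14 and 4.10 and log2 changes between -0.28 and 0.03.

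None of the 8 duplicates passed the test, and their values went in both directions. Of all probe sets, 5.22% were called higher and 4.93% lower after clean injury, and 4.21% and 4.99% after pinching. With 8 genes, a count of none cannot be told apart from such shares. After clean injury 2 of 8 were above 0, with a median log2 change of -0.12, and after pinching 4 of 8, with a median of -0.0066. Leaving out 1 array, 2 to 3 and 2 to 7 of the 8 were above 0. The medians ran from -0.21 without untreated replicate 2 to -0.06 without clean injury replicate 2, and after pinching from -0.09 without untreated replicate 2 to 0.09 without pinching replicate 1. At an unadjusted p under 0.05 none was higher or lower in either comparison (limma), against 12.2% and 12.8%, and 10.2% and 13.2%, of all probe sets. *RpL10Aa*, a copy of the large subunit gene *RpL10Ab*, gave 6.28, 6.20 and 6.05 in untreated larvae, 7.10, 6.56 and 6.01 after clean injury and 6.86, 6.61 and 6.54 after pinching. Its pinching arrays were all above the untreated ones, while clean injury replicate 3 was the lowest of all 9 and clean injury replicate 1 the highest. The log2 changes were 0.38 (standard error 0.23, adjusted p = 0.325 from limma) and 0.49 (standard error 0.23, adjusted p = 0.228), against 0.14 and 0.15 for *RpL10Ab*. The first depended on single arrays. It was 0.11 without clean injury replicate 1 (adjusted p = 0.792), 0.16 without the 3 arrays numbered 1 and 0.66 without clean injury replicate 3, where it was called with an adjusted p of 0.0467 (limma). *RpS28-like* gave 4.38, 4.86 and 4.70 in untreated larvae, 5.57, 4.99 and 4.41 after clean injury and 4.99, 5.06 and 5.22 after pinching. Its pinching arrays were above the untreated ones, and its clean injury arrays spanned them. The log2 changes were 0.35 and 0.45 (standard error 0.25 each, adjusted p = 0.407 and 0.309 from limma). After clean injury the value was 0.06 without replicate 1 of that treatment, 0.64 without its replicate 3, 0.21 without untreated replicate 1 and -0.07 without the 3 arrays numbered 1. Its relatives *RpS28b*, the standard gene, and *RpS28a* had 0.06 and 0.03, and -0.04 and -0.08. *RpL37-2*, a copy of *RpL37-1*, had -0.10 and 0.02, against 0.03 and 0.06 for the standard gene. *RpS5b*, *RpS19b* and *RpL22-like*, copies known mainly from the germ line of flies, had -0.14, -0.19 and -0.14 after clean injury and -0.02, -0.07 and -0.11 after pinching. *RpS10a* had -0.19 and 0.01. Several duplicates lie near the middle of the range of all probe sets or below it, where signals may be background, and no detection calls were used here.

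Among the relatives of ribosomal proteins, *RpLP0-like* was lower after both treatments. This gene, whose yeast relative Mrt4 takes the place of the stalk base during assembly of the large subunit, gave 7.26, 6.96 and 7.71 in untreated larvae, 6.57, 6.74 and 6.43 after clean injury and 6.19, 6.80 and 6.52 after pinching. Every treated array was below every untreated one. The log2 change was -0.73 after clean injury (standard error 0.20, 95% interval -1.18 to -0.28, adjusted p = 0.0487 from limma) and -0.81 after pinching (standard error 0.20, 95% interval -1.26 to -0.35, adjusted p = 0.0346). Blocking on the replicate number gave adjusted p of 0.0272 and 0.0192. In the 9 fits that each left out 1 array it stayed below 0, with log2 changes from -0.90 to -0.53 after clean injury and from -0.98 to -0.61 after pinching, but the call was kept in 3 of 9 for each comparison. For clean injury it was lost without untreated replicate 1 or 3, any clean injury array or pinching replicate 3, and for pinching without untreated replicate 1 or 3, clean injury replicate 1 or 2 or pinching replicate 1 or 3, with adjusted p up to 0.164 and 0.127.

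*RpL24-like*, whose yeast relative Rlp24 holds the place of RpL24 in the early large subunit, had values above 0. It gave 9.63, 9.87 and 9.70 in untreated larvae, 10.11, 10.08 and 9.95 after clean injury and 9.93, 10.27 and 10.14 after pinching. Every treated array was above every untreated one. The log2 changes were 0.31 (standard error 0.12, adjusted p = 0.140 from limma) and 0.38 (standard error 0.12, adjusted p = 0.0844). Blocking on the replicate number gave adjusted p of 0.0797 and 0.0427, so that the gene passed the test after pinching, as it did without pinching replicate 1, with an adjusted p of 0.0393. *RpL7-like*, related to the yeast assembly factor Rlp7, had log2 changes of 0.13 and 0.15, and its groups overlapped.

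**Figure D4:**
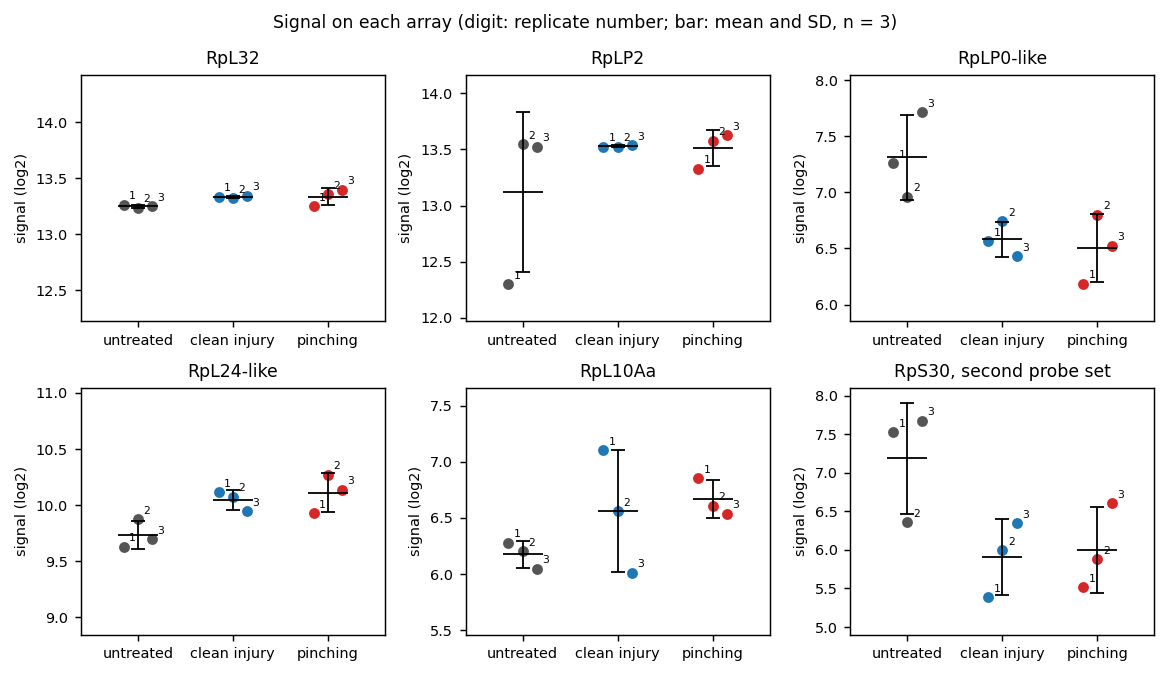
Log2 signal (vertical axes, whose ranges differ in position) of 5 genes and of the second probe set of *RpS30* on each array, by group, with the replicate number beside each point and bars for the mean and standard deviation of 3 arrays. *RpL32* stays between 13.24 and 13.40, *RpLP2* has 1 low untreated array at 12.30, and the untreated and treated arrays of *RpLP0-like* and of *RpL24-like* do not overlap.

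Genes that build or use the ribosome were compared with these. Of 34 measured translation factors and related genes, none was higher and 1 was lower after clean injury, and none was higher and 4 were lower after pinching. Over all probe sets 5.22% and 4.93% were higher and lower after clean injury and 4.21% and 4.99% after pinching. The medians of the list were 0.09 and 0.07, but 0.04 after clean injury without clean injury replicate 1 and 0.0033 after pinching without untreated replicate 1. The lower genes were *eEF1delta*, a subunit of the exchange factor of elongation, with log2 changes of -0.90 and -1.23 (adjusted p = 0.0110 and 0.00232 from limma), and, after pinching, *eIF2beta*, a subunit of the factor that brings the initiator tRNA, *eRF3* of termination and *eIF6*, which keeps the subunits apart, at -0.60, -0.56 and -0.54. Leaving out 1 array, *eEF1delta* kept its call in 8 and 9 of 9 fits, *eRF3* in 6, *eIF2beta* in 2 and *eIF6* in 1. Without untreated replicate 3 the counts of lower genes were 0 and 1. That fit also called fewer of all probe sets lower in both comparisons, with 373 against 937 after pinching. With the block, 3 of the list were higher and 3 lower after clean injury and 2 and 5 after pinching, against 10.1% and 8.58%, and 7.6% and 8.76%, of all probe sets. *Rack1*, a scaffold on the small subunit, was at 12.56 ± 0.06 in untreated larvae, 12.72 ± 0.02 after clean injury and 12.77 ± 0.04 after pinching (log2, SD, n = 3), and its log2 changes of 0.16 and 0.21 did not pass the test (adjusted p = 0.312 and 0.20 from limma).

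Genes on a broad list for ribosome assembly and rRNA synthesis were mostly below 0. The list also held genes with wider roles, such as *Max*, *Mnt*, *Spt5*, *Top1* and *kra*. Of 37 measured, 32 were below 0 after clean injury and 30 after pinching, with medians of -0.26 and -0.45. Leaving out 1 array, the median ran from -0.35 without untreated replicate 2 to -0.17 without untreated replicate 3 after clean injury. After pinching it ran from -0.55 without pinching replicate 2 to -0.34 without untreated replicate 3. Of the 37 genes, 1 was higher and 3 were lower at the adjusted threshold after clean injury, and none was higher and 4 were lower after pinching. All probe sets gave 5.22% and 4.93%, and 4.21% and 4.99%. Blocking on the replicate number gave 2 higher and 5 lower, and 2 higher and 11 lower, against 10.1% and 8.58%, and 7.6% and 8.76%. *NHP2*, a protein of the particles that guide rRNA pseudouridylation, had -0.82 and -0.98 (adjusted p = 0.0267 and 0.0126 from limma), *Rrp40*, of the RNA exosome, had -0.62 and -0.57, and *Polr1C*, a subunit of RNA polymerase I, had -0.44 and -0.48. *Nop10*, a partner of *NHP2*, was lower after pinching at -0.69, and *udd*, needed for rRNA transcription in flies, was higher after clean injury at 0.55 (adjusted p = 0.0358 from limma). Leaving out 1 array, *Rrp40* kept its call in 8 of 9 fits in each comparison, *NHP2* in 4 and 8 and *Polr1C* in 2 and 3. *Nop10* kept it in 4 of 9 after pinching and *udd* in 4 of 9 after clean injury. The counts depend on single arrays. Without clean injury replicate 2 none was lower after clean injury, and without untreated replicate 3 none was lower after pinching. Without untreated replicate 2 there were 6 and 12. The lower calls over all 18769 probe sets moved in the same directions. After clean injury they fell from 926 to 327 without clean injury replicate 2. After pinching they fell from 937 to 373 without untreated replicate 3 and rose to 1008 without untreated replicate 2.

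The 69 measured genes of the mitochondrial ribosome, a separate set of proteins, were all below 0 in both comparisons, with medians of -0.59 and -0.65, while 28 and 29 of the 30 standard cytosolic genes were above 0. The test called 34 and 37 of the 69 lower and none higher, against 4.93% and 4.99% of all probe sets called lower. With the block 52 and 56 were lower, against 8.58% and 8.76%. When 1 array was left out the counts ran from 7 to 46 and from 9 to 51, while those over all 18769 probe sets ran from 327 to 1225 and from 373 to 1008. The lowest counts came without untreated replicate 1, at 7 and 9, and leaving out untreated replicate 3 gave the same counts. The difference between the lists was not tested.

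**Figure D5:**
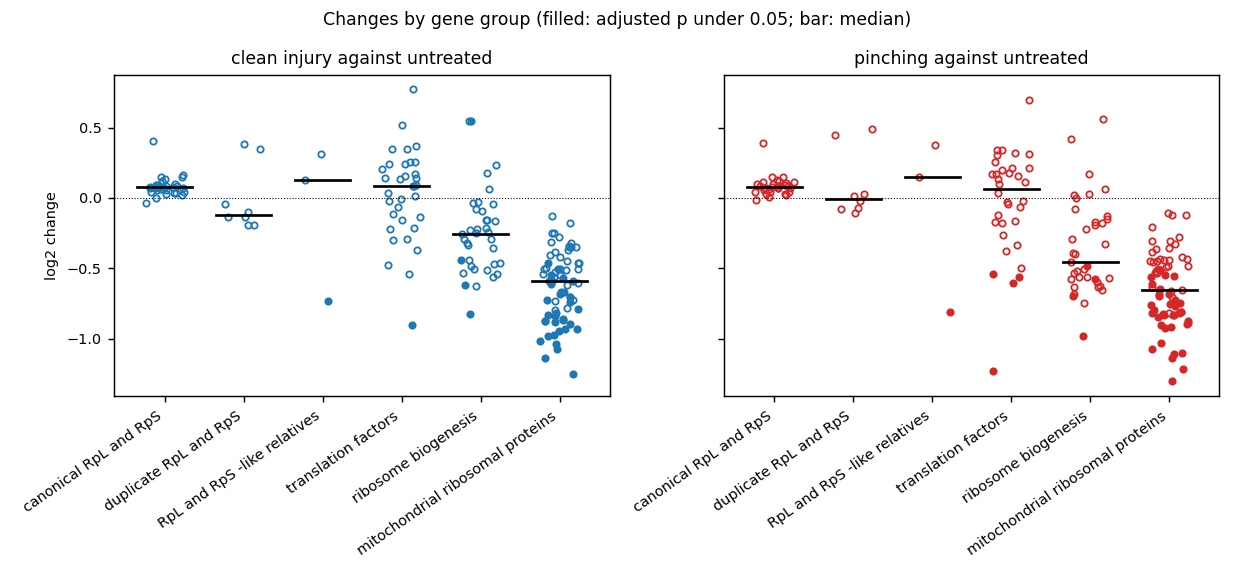
Log2 change against untreated larvae (vertical axis) of each gene of 6 groups (horizontal axis) after clean injury (left, blue) and pinching (right, red), filled where the adjusted p from limma is under 0.05, with a bar at the median of each group. The standard RpL and RpS genes (canonical in the axis label) form a narrow band with a median near 0.07, the assembly genes have medians of -0.26 and -0.45, and the mitochondrial ribosomal protein genes -0.59 and -0.65.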

How the data were processed

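The authors deposited 1 log2 signal per probe set and array of the Affymetrix Drosophila Genome 2.0 platform, whose normalization the sources used here do not give, and no further scaling was applied. Of 18952 probe sets, 183 controls were left out. The platform annotation names 1 gene for 13647, several for 402 and none for 4720 of the rest, and probe sets with several genes were not used. The 18769 probe sets were fitted with limma 3.58.1 in R 4.3.3, with a mean per group over all 9 arrays, two-sided tests, Benjamini-Hochberg adjustment over all probe sets and 4.25 prior degrees of freedom, after the script had been tested on simulated data. Python 3.11.15 with pandas 2.3.3 made the tables, and matplotlib 3.10.9 drew the plots. The members and gene lists were chosen with earlier results of these data known, and no set test was run. Named genes were *RpL32*, the stalk and fusion genes, called genes, the largest and smallest changes, the brightest and dimmest genes and those with a paralog. Other genes named among those whose arrays did not overlap, and the other probe sets, were chosen after their values were seen. Of the 41 genes, 17 were read by probe sets whose name carries the suffix s, x or a, all of them standard genes, with *RpL32* among them. Such probe sets are counted here as able to cross-hybridize. Those with the suffix a, which read *RpS15*, *RpL10Ab* and *RpL34a*, may match several transcripts of 1 gene rather than other genes. Groups of 3 arrays limit the precision, and arrays have no sequencing depth. Equal replicate numbers were taken to pair the arrays, because the deviations of same-numbered arrays from their group means correlated in 9 of 9 pairs (r 0.189 to 0.548). The 18 pairs with unlike numbers had r from -0.463 to 0.16. This pairing was read from the same values to which the block was then fitted, so the fits with the block are not independent of that choice. The labels do not state a pairing. Alternatives were quantile normalization, centring on array medians, filters on dim and cross-hybridizing probe sets, the mean over probe sets, fits of 6 arrays, an intensity trend, the methods' t-test, the replicate block, each array left out and, added after the data were seen, leaving out the 3 arrays numbered 1.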

Additional observations from a re-analysis of the deposited data

How the results depend on the processing

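The median log2 change of the 41 genes stayed above 0 against untreated larvae in each alternative run, at 0.05 and 0.08 after quantile normalization and at 0.02 and 0.04 after centring of array medians, where the medians of all probe sets were 0.00098 and 0.0074, and -0.08 and -0.06. Neither scaling called a standard gene. Of 1610 values of single genes in 20 other settings, 66 changed sign and none of these was a called value. *RpLP0-like* was not called with the methods' t-test after Benjamini-Hochberg adjustment, where 0 genes were lower in either comparison (adjusted p = 0.193 and 0.270), nor without the 3 arrays numbered 1, where 0 were lower (limma, 0.173 and 0.187). After clean injury 0 were lower without probe sets that can cross-hybridize (limma, adjusted p = 0.0509), and after pinching 0 were lower with only the 6 arrays compared (limma, adjusted p = 0.0735). *RpL24-like* was called after pinching with quantile normalization, where 1 gene was higher (limma, adjusted p = 0.0424), and with replicate number as a block, where 1 was higher (limma, adjusted p = 0.0427). The block changed no other call of the 41 genes. The methods' t-test without adjustment called 7 genes higher and 1 lower after clean injury and 8 and 1 after pinching, against 10.5% and 12.2%, and 8.7% and 9.14%, of all probe sets. When 1 array was left out, 0 to 1 genes were higher and 0 to 1 lower in each comparison with untreated larvae. Of all 18769 probe sets, the same fits called 441 to 1266 higher and 327 to 1225 lower after clean injury. After pinching they called 418 to 974 higher and 373 to 1008 lower. With cross-hybridizing probe sets left out, 27 genes remained, of which *RpL3*, *RpS7* and *RpS30* were then read by their dimmer probe sets, and the last 2 turned to -0.28 and -1.28 after clean injury and -0.12 and -1.19 after pinching. The cause of these changes was not tested. Probe signals near either end of the scale, few arrays and no detection calls limit what can be read.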
